A study of Mus musculus with 12 samples.

Results

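The forebrain regional identity factors described here are 9 transcription factor genes, Otx1, Otx2, Gbx2, Emx2, Lhx2, Nr2f1, Nr2f2, Dlx1 and Dlx2. They were taken by symbol from the 37620 genes counted in 12 libraries of mouse neural stem cells, by a rule that uses no measured value, though earlier results of these data were known when it was written. RNA came from cells of C57BL/6J embryos at E14.5, kept dividing in culture with FGF-2, EGF and B-27, and was made into stranded mRNA libraries. The 4 groups of 3 libraries each were E12KO (genotype E12-/-), E12wt (E12+/+ litter mates of the E12-/- embryos), E47KO (E47-/-) and E47wt (E47+/+). Both names stand for E proteins, a family of basic helix-loop-helix factors, and for splice forms of the same gene, Tcf3. The comparisons ask whether neural stem cells that lack either splice form carry other amounts of these mRNAs than their wild types.

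Regional identity factors divide the embryonic brain into territories before neurons are made. Otx1 and Otx2, relatives of the fly gene orthodenticle, mark forebrain and midbrain, and Gbx2 meets Otx2 at the border between midbrain and hindbrain, where each restrains the other. In the telencephalon, Emx2, Lhx2 and the nuclear receptors Nr2f1 and Nr2f2 pattern the cortex, and Dlx1 and Dlx2 act in the ventral part, from which inhibitory neurons come. E proteins bind the DNA word CANNTG, the E-box, usually together with a partner of their class.

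Depth lay between 34515297 and 56835783 reads on genes per library, and a floor of 3 reads was worth 0.0528 to 0.0869 counts per 1000000 reads (CPM). Floors and counting intervals here cover counting error only. Whether replicate libraries derive from separate embryos or cultures is not stated, so p-values measure the spread between these libraries. That spread may be technical, except that E47wt holds libraries of both sexes, as given below, which are not all from the same embryo. Tcf3 was counted at 72.9 to 101 CPM in E12KO and 75.9 to 82.4 CPM in E12wt. In the E47 line it was at 106 to 117 CPM in E47KO and 75.9 to 97.2 CPM in E47wt. Counts over the whole gene cannot separate the splice forms, so they do not check the labels. Markers of neural stem cells were high in every library, with Sox2 at 203 to 266 CPM and Fabp7 at 2501 to 3315 CPM. In a principal component analysis E47KO replicate 2 stood apart on the first axis (40.0% of the variance) at 63.1, while the other libraries lay between -15.9 and 6.78. On the second axis (16.6%) E12wt replicate 3 stood apart at 34.8. Xist was high and Y-linked transcripts were near 0 in the 6 E12 libraries and in E47wt replicates 1 and 3, and the reverse held in the 3 E47KO libraries and E47wt replicate 2, so sex and genotype are partly confounded in the E47 line.

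Because E proteins bind E-boxes, the promoter windows of the members were searched for them. The table of promoters from RefSeq (GRCm38.p6) held 13 windows for 8 of the 9 members, and Otx1 was not among them. The letters CANNTG, which read the same on both strands, occurred in the 250 bases before the start in 7 of the 13 windows, which belong to 5 members, against 66.2% of 32851 promoters of the same length. The word CAGGTG, searched on both strands and overlapping CANNTG, was in 0 of 13 windows and in 17.2% of all. A match is a description of letters and does not show a bound site, and its absence says nothing about the factor. The windows below belong to Otx2, the member that varied most between libraries, to Gbx2, whose window held the most matches of any single window, and to Emx2, whose libraries did not overlap between E12KO and E12wt and whose window held none. Capitals mark CANNTG.
Otx2, chr14:48667645-48667894, minus strand: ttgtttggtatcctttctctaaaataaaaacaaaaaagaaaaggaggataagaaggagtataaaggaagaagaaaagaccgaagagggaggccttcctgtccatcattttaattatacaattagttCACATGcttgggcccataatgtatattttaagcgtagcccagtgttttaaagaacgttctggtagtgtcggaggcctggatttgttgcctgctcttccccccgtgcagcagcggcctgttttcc
Otx2, chr14:48665110-48665359, minus strand: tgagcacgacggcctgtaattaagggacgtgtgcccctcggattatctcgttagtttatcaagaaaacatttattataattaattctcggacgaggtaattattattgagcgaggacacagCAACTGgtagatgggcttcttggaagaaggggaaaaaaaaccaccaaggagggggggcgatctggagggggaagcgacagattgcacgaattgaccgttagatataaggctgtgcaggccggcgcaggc
Gbx2, chr1:89931177-89931426, minus strand: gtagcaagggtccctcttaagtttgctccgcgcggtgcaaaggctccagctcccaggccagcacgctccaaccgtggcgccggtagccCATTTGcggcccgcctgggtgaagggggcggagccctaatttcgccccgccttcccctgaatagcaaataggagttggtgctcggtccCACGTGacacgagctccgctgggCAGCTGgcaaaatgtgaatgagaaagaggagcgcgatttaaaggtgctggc
Emx2, chr19:59458440-59458689, plus strand: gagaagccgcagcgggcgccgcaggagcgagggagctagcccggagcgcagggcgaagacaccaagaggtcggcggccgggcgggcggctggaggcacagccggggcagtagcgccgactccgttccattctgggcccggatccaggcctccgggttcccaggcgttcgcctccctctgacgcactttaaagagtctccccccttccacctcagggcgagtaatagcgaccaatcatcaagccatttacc
Of the 4 Otx2 windows in the table, which precede separate start sites, the 2 shown held 1 match each and the other two held 2 and 0. The Gbx2 window held 3.

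Levels of the members were first ordered per length, as CPM per kilobase of exon, over all 12 libraries. Nr2f1, a nuclear receptor that patterns cortical areas, was the highest, with a mean of 17.6 CPM per kilobase and a range of 14.53 to 25.5. Emx2, a homeobox factor of the dorsal telencephalon, followed at 10.1 CPM per kilobase (8.72 to 11.3). Neither range overlapped that of the next gene below. Otx1 (5.89, 4.71 to 8.01) and the LIM-homeobox gene Lhx2 (4.54, 3.01 to 6.97) overlapped each other on this scale. Gbx2 came next at 2.10 CPM per kilobase (1.45 to 2.77), below every Lhx2 value, and overlapped Otx2 (1.52, 0.00548 to 5.67). Otx2 in turn overlapped Nr2f2 (1.02, 0.244 to 1.83). Dlx2 (0.127, 0.0536 to 0.203) and Dlx1 (0.0676, 0.0264 to 0.137) were the lowest, overlapped each other, and lay below every Nr2f2 value.

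**Figure D1:**
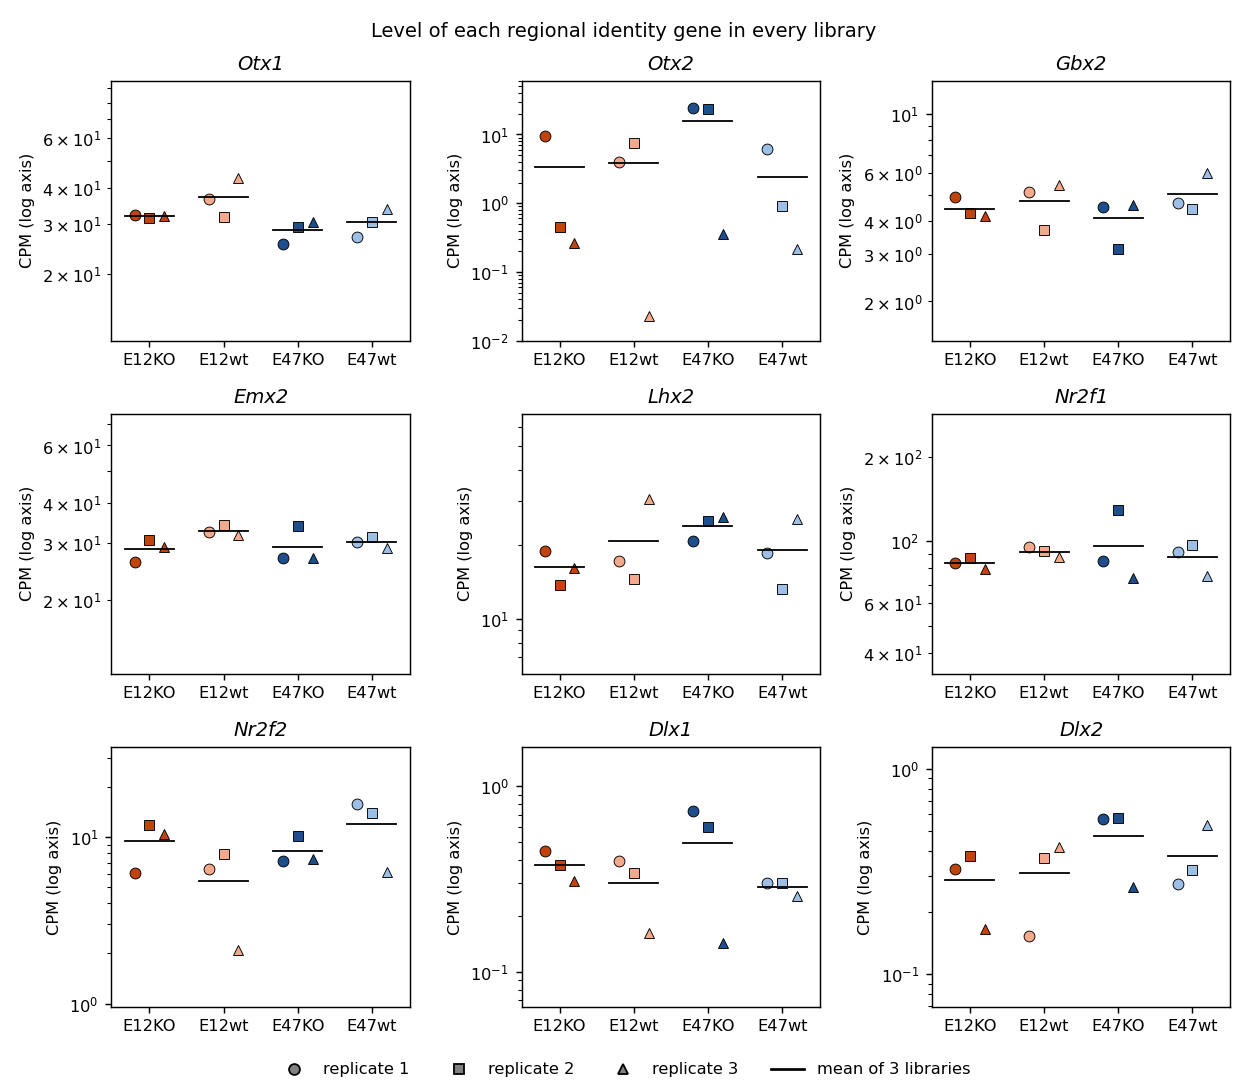
Level of each of the 9 genes in every library, in TMM-scaled CPM on a log axis whose span differs between panels. Symbols mark the replicate number and lines the mean of 3 libraries. Otx2 ran from 0.0231 to 23.9 CPM, with its lowest library in each group that of replicate 3.

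Otx2 encodes a homeodomain factor that is needed for the forebrain and midbrain to form and that later acts in choroid plexus and retina. Its level differed widely between libraries of the same group. In E12KO it was at 9.54, 0.450 and 0.261 CPM, from 383, 18 and 11 reads in replicates 1, 2 and 3, against 4.02, 7.61 and 0.0231 CPM in E12wt, from 184, 311 and 1 read. In E47KO it was at 23.9, 23.3 and 0.356 CPM (1002, 845 and 20 reads), against 6.16, 0.904 and 0.213 CPM in E47wt (225, 42 and 10 reads). Each of the 4 groups held at least 1 library above 4 CPM and at least 1 below 0.4 CPM, and KO and wild-type libraries overlapped in both lines. In every group the lowest library was the one numbered 3.

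The ratio of the highest to the lowest Otx2 library was 36.5 in E12KO, 67.2 in E47KO and 28.9 in E47wt. In E12wt the ratio was 329, with a 95% counting interval of 58.6 to 13037 because the lower library held 1 read. On the scale of log2(CPM + 0.5) the range inside a group was 3.72 in E12KO, 3.95 in E12wt, 4.83 in E47KO and 3.22 in E47wt. The median range of the 15277 genes tested in 12 libraries was 0.22, 0.22, 0.45 and 0.25 in the same groups, and the Otx2 range exceeded that of at least 99.9% of them in each. The SD of Otx2 within groups was 2.18 on this scale, rank 2 of the 12588 genes with a mean of at least 1 CPM. Only Xist ranked above it, and the Y-linked genes Eif2s3y, Ddx3y and Kdm5d followed. The rank ran from 1 to 6 when a library was left out, with 6 without E47KO replicate 3 and 1 without E47wt replicate 2.

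**Figure D2:**
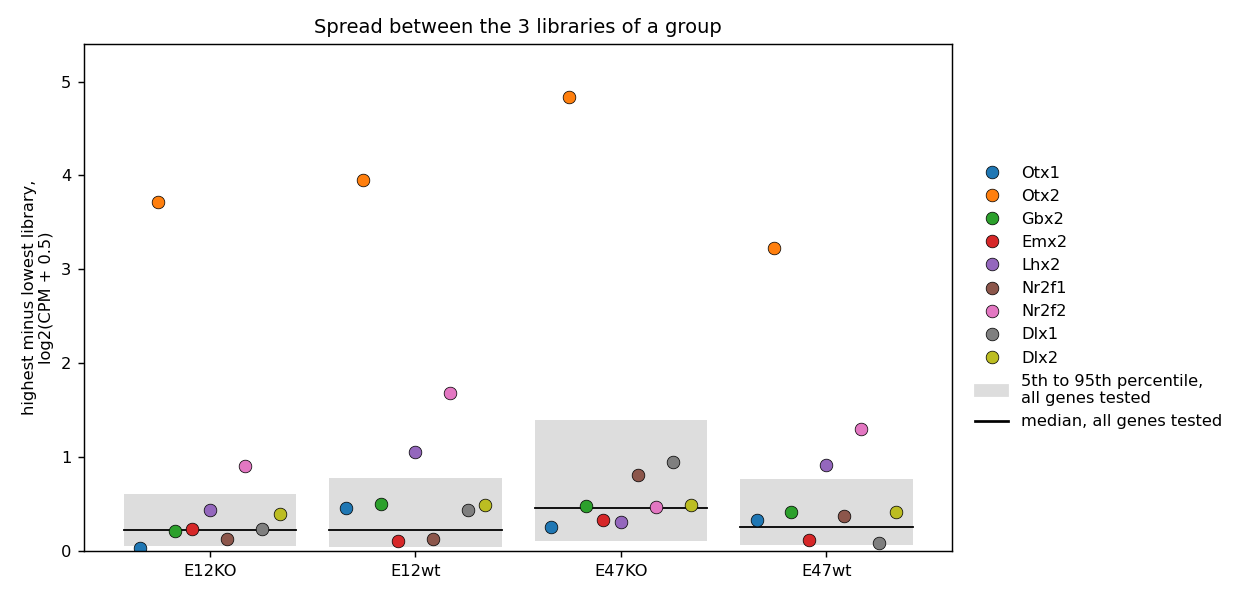
Difference between the highest and the lowest library of each group in log2(CPM + 0.5), 1 dot per gene. Grey bands span the 5th to 95th percentile of the 15277 genes tested and lines mark their median. Otx2 lay between 3.22 and 4.83, above the band in all 4 groups.

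Fitted fold changes of Otx2 carried this spread. In E12KO Otx2 averaged 3.42 ± 5.30 CPM, against 3.89 ± 3.80 CPM in E12wt (SD, n = 3 each). The fitted log2 fold change was -0.18 ± 1.32 (SE, edgeR quasi-likelihood test, Benjamini-Hochberg adjusted p = 0.971). It was -3.43 without E12KO replicate 1, 0.75 without E12wt replicate 2, 0.33 without E12KO replicate 2 and 0.37 without E12KO replicate 3, so neither its direction nor its size held. In E47KO the mean was 15.9 ± 13.4 CPM, against 2.43 ± 3.25 CPM in E47wt. The fitted log2 fold change was 2.73 ± 1.47 (edgeR, adjusted p = 0.971), 2.35 without E47KO replicate 2, 4.82 without E47wt replicate 1 and 4.13 ± 2.67 with sex as a covariate. Otx2 was higher in E47KO in 3 of 3 same-numbered pairs, and with the replicate number as a block the log2 fold change was 2.80 ± 0.72 (edgeR, adjusted p = 0.866). In the authors' deposited table the Otx2 log2 fold change in the E47 line was 2.73 with a standard error of 1.66 and an adjusted p of 0.999. The knockout effects of both lines differed by 2.92 ± 2.29 on the log2 scale (edgeR, adjusted p = 0.932), with 1.99 to 6.18 over the alternatives, and E47wt against E12wt gave -0.71 ± 1.33 (edgeR, adjusted p = 1.00).

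Among the 12588 genes, those whose pattern over the 12 libraries was most like that of Otx2 were found by Pearson's r of log2(CPM + 0.5). They were picked as the highest of all genes, so their r is a description and carries no p. Six3os1, a non-coding transcript named for the neighbouring gene Six3, came first, with r = 0.945 and Spearman's rho = 0.937, and r = 0.923 without the 2 libraries farthest from the Otx2 median. It was at 3.21, 0.825 and 0.285 CPM in E12KO, against 1.22, 7.73 and 0 CPM in E12wt. In E47KO it was at 14.4, 6.79 and 0.160 CPM, against 6.79, 0.775 and 0.277 CPM in E47wt. The libraries fall into 6 with Otx2 above 1 CPM and 6 below, and r for Six3os1 was 0.712 in the 6 above and 0.852 in the 6 below. The split uses the Otx2 values themselves, so these r are descriptions too. In the 6 below, Six3os1 was at 0 to 0.825 CPM. Six3 itself did not exceed 0.310 CPM. The next were Foxk1 (r = 0.923), the glycine transporter gene Slc6a9 (0.899), Myl9 (0.897) and the GABA transporter gene Slc6a11 (0.890). These 4 varied far less than Otx2, Foxk1 between 36.5 and 43.6 CPM. Six3os1 also ranked 6 by spread within groups.

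**Figure D3:**
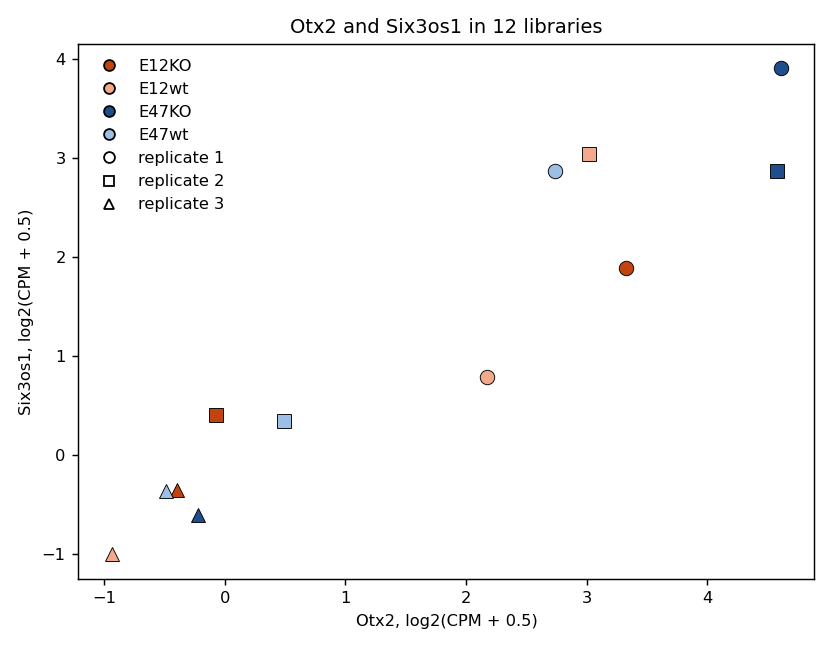
Six3os1 against Otx2 in the 12 libraries, both in log2(CPM + 0.5). Colours mark the group and symbols the replicate number; the 4 libraries numbered 3 lie at the lower left, with Otx2 at 0.0231 to 0.356 CPM.

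Since Otx2 is also known from choroid plexus and pigment epithelium of the eye, markers of both were read in the same libraries. Of 10 choroid plexus markers, Folr1 did not exceed 0.175 CPM and Kcne2 0.0534 CPM, and the highest after Enpp2 and Ttr was Aqp1, at up to 0.772 CPM. Ttr was highest at 5.98 CPM in E47KO replicate 3, where Otx2 was at 0.356 CPM, and lowest at 0.0231 CPM in E12wt replicate 3, where Otx2 was also lowest. The summed level of the 10 ran from 35.8 to 160.5 CPM in E47KO and from 44.0 to 63.9 CPM in E47wt, most of it Enpp2. Enpp2 peaked at 154 CPM in E47KO replicate 2, the library that stood apart, where Otx2 was at 23.3 CPM. It was at 42.8 CPM in E47KO replicate 1, where Otx2 was highest at 23.9 CPM. In E12wt replicate 3, where Otx2 was lowest, Enpp2 was at 68.8 CPM. In the E12 line the sum ran from 31.1 to 53.3 CPM in E12KO and from 52.9 to 69.6 CPM in E12wt. Of 9 markers of eye and pigment epithelium, Crx was at 0 in all libraries and Rpe65 did not exceed 0.13 CPM, while Mitf was at 3.88 to 8.55 CPM, Tyr at 0.607 to 3.28 CPM, Pmel at 0.882 to 3.12 CPM and Dct at 0.149 to 1.79 CPM. That sum was 66.5 to 95.1 CPM in E47KO and 104 to 106 CPM in E47wt, and 104 to 123 CPM in E12KO and 133 to 177 CPM in E12wt, most of it Rlbp1. Their part in the Otx2 values was not tested. In bulk libraries, fewer cells of a type and less RNA per cell cannot be told apart.

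Otx1, the relative of Otx2 with a role in the cortex, was steady by comparison. It was at 32.2, 31.5 and 31.9 CPM in E12KO, against 36.5, 31.5 and 43.4 CPM in E12wt. E47KO libraries held 25.5, 29.3 and 30.5 CPM, against 26.9, 30.4 and 33.8 CPM in E47wt. The groups overlapped in both lines, and the fitted log2 fold changes were -0.22 ± 0.11 in E12KO (edgeR, adjusted p = 0.573) and -0.10 ± 0.14 in E47KO (adjusted p = 0.971). They were -0.096 in E12KO without E12wt replicate 3 and -0.0032 in E47KO without E47wt replicate 3. Otx1 had the largest share of its variance between groups among the 9 members, 54.1%, where Otx2 had 18.3% and Nr2f1 9.75%. The median over 15277 genes was 25.7%.

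Gbx2, the counterpart of Otx2 at the midbrain and hindbrain border, was at 4.88, 4.28 and 4.16 CPM in E12KO, against 5.12, 3.70 and 5.41 CPM in E12wt. E47KO libraries held 4.51, 3.15 and 4.57 CPM, against 4.65, 4.41 and 6.02 CPM in E47wt. Log2 fold changes were -0.09 ± 0.17 in E12KO and -0.30 ± 0.23 in E47KO (edgeR, adjusted p = 0.878 and 0.971). Gbx2 overlaps the opposite-strand transcript D130058E05Rik, and 41.1% of its strand-assigned reads lay on the sense column, so its values depend on the strand setting. Counts of both strands can include reads of D130058E05Rik, and for Gbx2 they came to 139% of the opposite-strand counts. With them Gbx2 was at 6.30, 3.73 and 6.22 CPM in E47KO, against 7.14, 6.35 and 8.30 CPM in E47wt. On that count all E47KO libraries lay below all E47wt libraries, where 7.7% of the genes tested did not overlap in either direction.

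Emx2 and Nr2f1 were the members whose libraries did not overlap between E12KO and E12wt. Emx2 was at 26.2, 30.8 and 29.2 CPM in E12KO, against 32.5, 34.1 and 31.7 CPM in E12wt, a log2 fold change of -0.18 ± 0.09 (edgeR, adjusted p = 0.560). Nr2f1 was at 83.7, 87.0 and 79.4 CPM in E12KO, against 95.5, 92.1 and 87.6 CPM in E12wt, a log2 fold change of -0.13 ± 0.06 (adjusted p = 0.564). All 3 E12KO libraries lay below all 3 E12wt libraries in 7.17% of the genes tested and on one side or the other in 13.6%. No test sets the 2 of 9 members apart from that background. With counts of both strands only Emx2 did not overlap, against 13.5% of genes. Both genes share their locus with an antisense transcript. For Nr2f1 it is A830082K12Rik, at 7.73 to 11.6 CPM, and for Emx2 it is Emx2os, at 4.56 to 6.21 CPM. Both-strand counts came to 77.2% of the opposite-strand counts for Nr2f1 and 99.5% for Emx2. Neither Emx2 nor Nr2f1 passed the test.

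In the E47 line Emx2 was at 27.0, 34.0 and 26.9 CPM in E47KO, against 30.3, 31.4 and 29.0 CPM in E47wt (log2 fold change -0.05 ± 0.14, edgeR, adjusted p = 0.977). Nr2f1 was at 84.8, 130 and 74.0 CPM in E47KO, against 92.0, 97.4 and 75.3 CPM in E47wt (0.12 ± 0.22, adjusted p = 0.971). The value of 130 CPM came from E47KO replicate 2, the library that stood apart, and without it the Nr2f1 log2 fold change was -0.15. For 0 of 9 members the E47KO and E47wt libraries were free of overlap, against 7.89% of all genes tested. Between the wild types, E47wt lay below E12wt in all libraries for Emx2 alone, against 9.52% of genes without overlap in either direction.

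Lhx2 and Nr2f2 varied more between libraries than most genes, with ranks of 1199 and 221 of 12588 by the SD within groups. Lhx2, which helps specify cortex, was at 18.8, 13.8 and 16.0 CPM in E12KO, against 17.1, 14.51 and 30.6 CPM in E12wt, where replicate 3 was high. In E47KO it was at 20.8, 24.8 and 25.9 CPM, against 18.5, 13.2 and 25.3 CPM in E47wt. Log2 fold changes were -0.35 ± 0.26 in E12KO and 0.32 ± 0.24 in E47KO (edgeR, adjusted p = 0.668 and 0.971), and the E12KO value was 0.033 without E12wt replicate 3.

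Nr2f2, the nuclear receptor COUP-TFII, was at 6.10, 11.8 and 10.4 CPM in E12KO, against 6.45, 7.86 and 2.11 CPM in E12wt. Values in E47KO were 7.21, 10.2 and 7.42 CPM, against 15.8, 13.9 and 6.13 CPM in E47wt. The library of 2.11 CPM was E12wt replicate 3. Log2 fold changes were 0.80 ± 0.42 in E12KO and -0.53 ± 0.35 in E47KO (edgeR, adjusted p = 0.578 and 0.971), and 0.40 in E12KO without E12wt replicate 3. The knockout effects differed by -1.32 ± 0.63 on the log2 scale (edgeR, adjusted p = 0.932). E47wt against E12wt gave a log2 fold change of 1.12 ± 0.50 (edgeR, adjusted p = 1.00), which shares its wild-type libraries with both knockout effects. With the replicate number as a block it was 1.19 ± 0.15 (edgeR, adjusted p = 0.326), with E47wt higher in 3 of 3 same-numbered pairs.

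Dlx1 and Dlx2, homeobox genes of the ventral telencephalon, sat near the floor. Dlx1 was at 0.448, 0.375 and 0.309 CPM in E12KO, against 0.394, 0.343 and 0.162 CPM in E12wt. Values in E47KO were 0.740, 0.607 and 0.142 CPM, against 0.301, 0.301 and 0.255 CPM in E47wt. Dlx2 was at 0.324, 0.375 and 0.166 CPM in E12KO, against 0.153, 0.367 and 0.416 CPM in E12wt, and at 0.573, 0.579 and 0.267 CPM in E47KO, against 0.274, 0.323 and 0.532 CPM in E47wt. These values rest on 7 to 31 reads for Dlx1 and 7 to 25 for Dlx2, and all groups overlapped. Log2 fold changes in E47KO were 0.76 ± 0.58 for Dlx1 and 0.29 ± 0.43 for Dlx2 (edgeR, adjusted p = 0.971 each). In E12KO they were 0.33 ± 0.38 and -0.10 ± 0.47 (adjusted p = 0.790 and 0.952), and the Dlx1 value was 0.028 without E12wt replicate 3 and 0.58 without E12wt replicate 1.

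**Figure D4:**
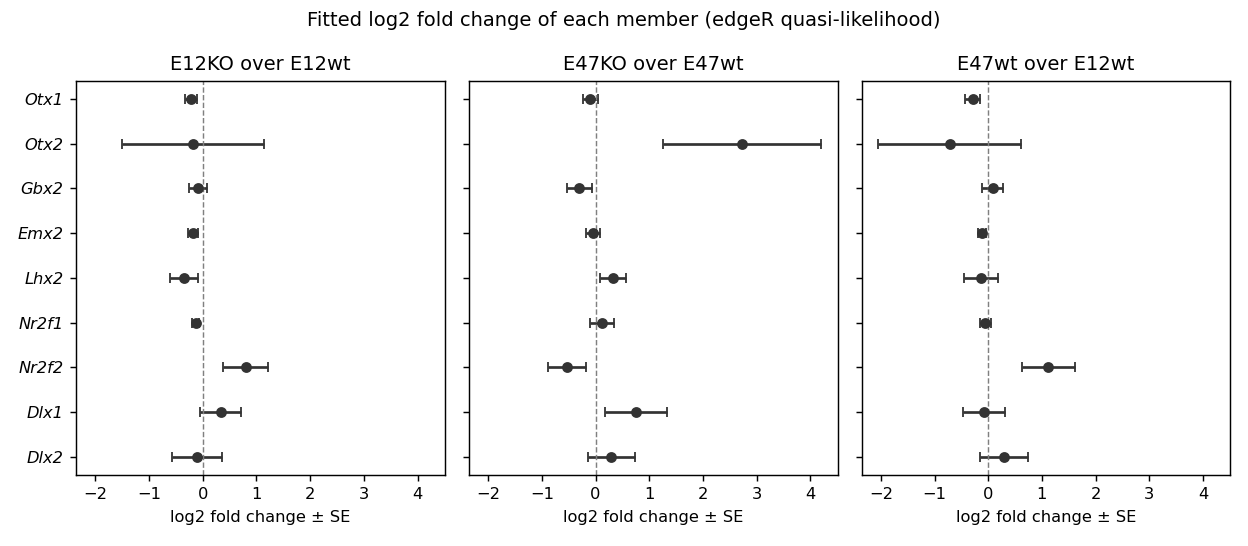
Fitted log2 fold change of each gene from edgeR, with a standard error derived from its F statistic, for E12KO over E12wt, E47KO over E47wt and E47wt over E12wt. Otx2 has the widest errors, 1.32 to 1.47, and 0 of 9 genes passed the adjusted threshold in any panel.

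Over all 9 members, 0 were called at an adjusted p under 0.05 in E12KO against E12wt, where edgeR called 0.0407% of 14755 genes tested and DESeq2 0.515%, and 0 in E47KO against E47wt, where edgeR called 0.0134% of 14965 and DESeq2 0.0802%. The 6 genes called in the E12 line include Tdg and Gm9855, which were also the 2 called in the E47 line. In the difference between the knockout effects 0 of 9 members and 0.0% of 15277 genes were called, with 463 genes (3.03%) at an unadjusted p under 0.05 and 1 (0.00655%) called by DESeq2. In E47wt against E12wt 0 of 9 members and 0.0% of 14892 genes were called, with 568 genes (3.81%) at an unadjusted p under 0.05 and 7 (0.047%) called by DESeq2. In the main edgeR fits no member reached an unadjusted p under 0.05 in any of the 4 comparisons. Of all genes 8.96% did in the E12 line and 2.19% in the E47 line. DESeq2 called no member and gave no adjusted p for Dlx1 and Dlx2 in the E47 line. Some alternatives gave fold changes larger against their SE, such as -0.83 ± 0.22 for Nr2f2 in E47KO without E47wt replicate 3. With the replicate number as a block, 1 of 9 members (Otx2) had an unadjusted p under 0.05 in E47KO against E47wt, where 3.29% of all genes did, and 2 of 9 (Nr2f2 and Otx1) in E47wt against E12wt, where 7.45% did. None of them passed the adjusted threshold. In E47KO against E47wt 4 of 9 members took the same direction in 3 of 3 same-numbered pairs, Otx2 and Lhx2 higher and Otx1 and Gbx2 lower in E47KO, against 25.6% of all genes. In E47wt against E12wt 3 of 9 did, Nr2f2 higher and Otx1 and Emx2 lower in E47wt, against 29.6%. With DESeq2 the unadjusted p was 0.0346 for Nr2f2 in the difference between knockout effects and 0.0498 for Otx1 in E47wt against E12wt. In E12KO 7 of 9 log2 fold changes were below 0, with a median of -0.13 over the members, against 48.6% below 0 and a median of 0.00 over all genes. In E47KO 5 of 9 were above 0, with a median of 0.12, against 49.0% above 0 and a median of -0.01.

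Likeness between members varied from pair to pair. Over the 36 pairs, r of log2(CPM + 0.5) ran from -0.752 to 0.834 with a median of 0.01. Libraries share depth and scaling, so these r are descriptions. The highest pair by r was Otx2 with Dlx1 (r = 0.834, rho = 0.811, and 0.669 without the 2 libraries farthest from the Otx2 median). Emx2 with Nr2f1 was the highest by rho (r = 0.705, rho = 0.825, and 0.684 without the 2 libraries farthest from the Emx2 median). The lowest was Otx1 with Nr2f2 (r = -0.752, rho = -0.664). The gene most like each other member was Zfp711 for Otx1 (r = 0.927), Fam196a for Gbx2 (0.907), Fundc1 for Emx2 (0.955), Zbtb8a for Lhx2 (0.944), Il18 for Nr2f1 (0.982), Sumf1 for Nr2f2 (0.928), En2 for Dlx1 (0.907) and Prrt1 for Dlx2 (0.852). Each was picked as the highest of 12588 genes, so these r carry no p. Without the 2 libraries farthest from the member's median they ran from 0.788 for Zfp711 and 0.789 for En2 to 0.953 for Il18. Dlx1 rests on 7 to 31 reads a library.

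The wider regional programme was read from 12 lists with 102 genes, of which 10 had no read in any library. Of 48 tested in the E12 line 0 were called, against 0.0407% of all genes, and 25 were above 0 in E12KO. Of all genes 48.6% were below 0 in that line. Of 47 tested in the E47 line 0 were called, against 0.0134% of all genes, and 25 were above 0, against 49.0%. With so few genes called, these counts do not set the lists apart from all genes. Among dorsal genes, Pax6 was at 44.3 to 65.8 CPM and Gli3 at 16.8 to 38.8 CPM. Emx1, the paralog of Emx2, did not exceed 0.116 CPM.

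Ventral genes were uneven. Olig2 was at 260 to 459 CPM, while Gsx2 and Isl1 had no read and Nkx2-1 did not exceed 0.138 CPM. Dlx5 and Dlx6, neighbours of the same family as Dlx1 and Dlx2, did not exceed 0.208 and 0.573 CPM, and Gad1, an enzyme of GABA synthesis, was at 2.06 to 16.3 CPM. Of the diencephalic list, Tcf7l2 was at 15.2 to 23.1 CPM and Nkx2-2 at 0.974 to 4.67 CPM, and Sim1 and Otp had no read. Of the midbrain and isthmus list, En2 was at 1.32 to 4.70 CPM, Fgf17 did not exceed 0.648 CPM, and Pax2, Pax5 and Wnt1 had no read. Of the hindbrain list, Egr2, which other cells also express, was at 23.1 to 54.3 CPM, while the Hox genes of the list did not exceed 0.358 CPM. Among genes of cortical patterning, Etv5 was at 226 to 570 CPM and Fgfr3 at 91.6 to 236 CPM. Of the other paralogs, the nuclear receptor Nr2f6 was at 16.2 to 24.8 CPM and Lhx9 did not exceed 0.646 CPM. In the list of cortical hem genes, Msx1 did not exceed 1.59 CPM and Rspo3 0.450 CPM.

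Markers of other cell types were read beside the members. Mesenchyme markers were the only list with called members: Col1a1, Col1a2 and Bgn were lower in E12KO, and the summed level of 7 such markers was 9.39 to 9.98 CPM in E12KO and 11.98 to 16.4 CPM in E12wt. Foxc1 of the same list, most of the E12KO sum, was at 8.10 to 8.60 CPM in E12KO and 4.40 to 7.35 CPM in E12wt (log2 fold change 0.45 ± 0.18, edgeR, adjusted p = 0.537). In the E47 line the sum was 7.13 to 9.50 CPM in E47KO and 5.85 to 20.3 CPM in E47wt. Summed neuron markers were at 1113 to 1301 CPM in E12KO and 1150 to 1233 CPM in E12wt, and astrocyte markers at 946 to 1214 CPM in E12KO and 669 to 1100 CPM in E12wt. In the E47 line neuron markers summed to 1024 to 1187 CPM in E47KO and 1165 to 1239 CPM in E47wt, and astrocyte markers to 796 to 1369 CPM in E47KO and 700 to 1111 CPM in E47wt. Oligodendrocyte lineage markers summed to 589 to 778 CPM in E12KO and 688 to 949 CPM in E12wt, and to 745 to 899 CPM in E47KO and 661 to 964 CPM in E47wt. Most of the neuron sum was Map2 and most of the oligodendrocyte sum Olig1, so these sums say little of the other markers. Log2 fold changes above 0 in E12KO numbered 1 of 5 neuron, 4 of 6 astrocyte and 0 of 5 oligodendrocyte markers tested. In E47KO they numbered 1, 5 and 3. The median of all genes was 0.00 and -0.01. Of these markers 0 were called, where edgeR called 0.0407% of all genes in the E12 line and 0.0134% in the E47 line. Endothelial markers summed to at most 5.42 CPM and microglial markers to at most 9.13 CPM in any library. Most of these sums was Kdr and Cd68. Pecam1 did not exceed 0.331 CPM and Cdh5 0.0646 CPM, and Cx3cr1, Csf1r and Aif1 did not exceed 0.128 CPM. The part of these cell types in the members' values was not tested.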

How the data were processed

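The data are 12 RNA libraries, 3 in each of 4 groups. For each library the authors deposited read counts per gene for both strands, the sense strand and the opposite strand. STAR 2.5 and genome build mm9 are named in the submitters' processing notes, and the version of the gene annotation was not stated. Opposite-strand counts held 97.1 to 97.2% of strand-assigned gene reads and were used. Rows that name no gene (14.2 to 17.5% of that column's reads) were left out. The deposited comparison tables, credited to DESeq and DESeq2 in the submitters' processing notes, hold p-values and adjusted p-values, a score, log2 fold changes, their standard errors and a normalized signal per library, all by the authors; they list 7 of the 9 members, and Dlx1 and Dlx2 were named from the GRCm38 reference, which named 32897 of 37620 IDs. Exon lengths, promoter coordinates and overlaps with antisense transcripts are on GRCm38, not on the build of the counts.

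The test on counts was edgeR's quasi-likelihood F test (version 4.0.16 in R 4.3.3, low-count filter by group, TMM, two-sided p-values with Benjamini-Hochberg adjustment over all genes tested, threshold 0.05). Standard errors given with edgeR fold changes were derived as the absolute log2 fold change divided by the square root of the F statistic. All members passed the low-count filter in every comparison. CPM are TMM-scaled over the 12 libraries, and spread and likeness use log2(CPM + 0.5). Ranges inside groups and shares of variance were set beside the 15277 genes tested in 12 libraries. Ranks by SD, and the genes searched for likeness, were limited to the 12588 genes with a mean of at least 1 CPM. DESeq2 1.42.0, other scalings, no filter, both-strand counts, all libraries in one fit, a sex covariate, the replicate block and leaving out each library were alternatives. The fitting scripts were tested on simulated data. Members, lists and alternatives were chosen with earlier results of these data known. The rule for names takes the 9 members, and from each list up to 4 called genes or else the 2 most abundant, with genes at 0; other list genes named were picked with their values in view. Some list genes are counted in the totals but not reported here by name.

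The lowest chi-square per degree of freedom between libraries of a group was 12.9 over 12 pairs, so no pair agreed within sampling noise. No label ties replicate numbers to a litter or day. Deviations of same-numbered libraries correlated at 0.195 to 0.524 in the E47 line and 0.147 to 0.425 between the wild types. Differently numbered libraries correlated at -0.355 to 0.171 in the E47 line and -0.356 to 0.143 between the wild types. This was taken as pairing, though the lowest same-numbered values lay close to the highest of the others. Deviations were taken from group means, so high same-numbered correlations push the others down, and this contrast is partly built in. In the E12 line same-numbered libraries correlated at -0.054 to 0.112 and differently numbered ones at -0.282 to 0.205, which was not taken as pairing. The main fits used the group only and left the pairing out, with the replicate block as an alternative.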

Additional observations from a re-analysis of the deposited data

How the results depend on the processing

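No member was called in any comparison under any alternative. Genes called in E12KO against E12wt numbered 6, and 76 with DESeq2, 20 with no filter on low counts, 2 with all 12 libraries in one fit and 2 to 10 when a library was left out (2 without E12KO replicate 2 or 3, 10 without E12wt replicate 3). In E47KO against E47wt 2 were called, 12 with DESeq2, 1 with a sex covariate and 0 to 7 when a library was left out (leaving out E47wt replicate 3 gave 0, E47KO replicate 1 gave 1, as did E47wt replicate 1, and E47wt replicate 2 gave 7). In the difference between knockout effects 0 were called, 1 with DESeq2 and 0 to 1 without a library (1 without E47wt replicate 2); in E47wt against E12wt 0, 7 with DESeq2 and 1 with all libraries. With the replicate block 4 were called in the E12 line and 2 in the E47 line, and it changed no member's call. None of the fold changes that turned direction was called. With a sex covariate Nr2f1 in E47KO was -0.019 and Lhx2 in E47wt against E12wt was 0.075. Leaving out a library gave, in E12KO against E12wt, ranges of -3.43 to 0.75 for Otx2, -0.24 to 0.0060 for Gbx2, -0.55 to 0.033 for Lhx2 and -0.45 to 0.18 for Dlx2. In E47KO against E47wt the ranges were -0.17 to 0.027 for Emx2 and -0.15 to 0.30 for Nr2f1. In the difference between knockout effects they were -0.0093 to 0.43 for Nr2f1 and -0.016 to 0.92 for Dlx1. In E47wt against E12wt they were -2.79 to 0.23 for Otx2, -0.066 to 0.19 for Gbx2, -0.39 to 0.26 for Lhx2, -0.14 to 0.047 for Nr2f1, -0.37 to 0.18 for Dlx1 and -0.048 to 0.56 for Dlx2. The cause of these changes was not tested. The rank of Otx2 by spread, recomputed after its values were seen, was 5 with a pseudocount of 2 and 2 with 0.1. Other values moved by over 1.5 times without turning. Over all alternatives E12KO against E12wt gave -0.32 to -0.096 for Otx1, -0.24 to -0.12 for Emx2, 0.40 to 1.15 for Nr2f2 and 0.028 to 0.58 for Dlx1. E47KO against E47wt gave -0.18 to -0.0032 for Otx1, 2.19 to 4.82 for Otx2, -0.42 to -0.11 for Gbx2, 0.12 to 0.85 for Lhx2, -0.83 to -0.28 for Nr2f2, 0.33 to 1.25 for Dlx1 and 0.11 to 0.65 for Dlx2. The difference between knockout effects gave 0.0034 to 0.23 for Otx1, 1.99 to 6.18 for Otx2, -0.34 to -0.015 for Gbx2, 0.028 to 0.21 for Emx2, 0.29 to 1.21 for Lhx2 and 0.13 to 0.74 for Dlx2. E47wt against E12wt gave -0.39 to -0.17 for Otx1 and 0.73 to 1.47 for Nr2f2. The range inside a group moved by more than its SD for 3 of the values tried (Otx1 and Gbx2 in E12KO, Dlx1 in E47wt). Dlx1 and Dlx2 rest on 7 to 31 reads a library, so counting error bears on them.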
